A study of Sus scrofa with 24 samples.

Results

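The hippocampus of small piglets fed the hydrolyzed fat formula was compared with that of normally sized piglets fed the standard formula, which in this study is the healthy reference. Of the 24 RNA-sequencing libraries of the series, 12 belong to the comparison, 6 of SGA HF piglets and 6 of AGA CON piglets, and they were chosen by their size and diet labels alone. SGA stands for small for gestational age and AGA for appropriate for gestational age, both by weight at birth. HF stands for a formula whose fat was partly supplied as soy free fatty acids, monoglyceride and lecithin, with cholesterol, and CON for a formula whose fat was almost wholly triglyceride oil. Total fat was the same in both formulas, so HF does not mean a high fat content. All piglets were 14 days old, were naturally delivered at term and had been raised individually on formula from the age of 2 days. Each group held 3 males and 3 females, and 3 piglets from each of 2 cohorts. The 12 piglets carried 12 different litter labels, so no SGA HF piglet had a littermate among the AGA CON piglets. The 12 remaining libraries, SGA CON and AGA HF, entered the fit to estimate the spread, and each SGA HF piglet's own littermate is an AGA HF piglet. Size and diet differ together in this comparison, so their separate parts in a difference cannot be told apart from it. The question is how near small piglets on the HF formula come to the reference.

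The hippocampus holds densely packed granule neurons in the dentate gyrus and pyramidal neurons in the CA fields, together with interneurons, astrocytes, microglia and vessels. In pigs, as in humans, the brain grows fast around birth, and oligodendrocytes are then laying down myelin, a membrane wrap built from proteins such as MBP and MOBP and from lipids rich in cholesterol and galactosylceramide. Bulk libraries average over all these cells, and in them fewer cells of a type and less RNA per cell cannot be told apart. No sequences are shown, since the comparison concerns levels of whole genes.

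Total counts on the listed genes ran from 6931595 to 9284355 in SGA HF libraries (median 8060160) and from 6204809 to 8723343 in AGA CON libraries (median 7494464). Levels are given as CPM, counts scaled to the library total after TMM normalization, and 3 counts corresponded to 0.323 to 0.484 CPM in the 12 libraries. Markers of neurons, astrocytes and oligodendrocytes were detected in all 12 libraries. Among the 12 libraries, a pair stood apart. SGA HF replicate 4 held 2574 reads of GH1, the pituitary growth hormone gene, against at most 39 in any other library, and its summed level of pituitary markers was 384.7 CPM against 27.1 to 44.4 CPM in the 23 others. In the same library PRL reached 62 reads, CGA 60, POMC 410 and LHB 127, while FSHB, TSHB and POU1F1 had 0 reads in every library. AGA CON replicate 2 had the lowest summed level of pan-neuronal markers of all libraries, 2547 CPM against 4426 to 5476 CPM in the other 5 AGA CON libraries, and also of dentate granule and pyramidal neuron markers, 6660 CPM against 9977 to 11070 CPM. It had the highest astrocyte sum of all libraries (14180 CPM against 9642 to 11860 CPM in the other 5), the highest microglia sum (361 CPM against 123 to 265 CPM) and the highest endothelial and pericyte sum (524 CPM against 343 to 405 CPM). Reads of the unnamed mitochondrial RNA entry were also more frequent there, at 1.61% against 0.761% to 0.932%. Outside the comparison but in the same fit, AGA HF replicate 4 had a similar profile. Its sums were 3013 CPM for pan-neuronal and 7623 CPM for granule and pyramidal neuron markers. They were 14010 CPM for astrocyte, 315 CPM for microglia and 502 CPM for endothelial and pericyte markers. Values of the main results are given with and without SGA HF replicate 4 and AGA CON replicate 2.

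**Figure D1:**
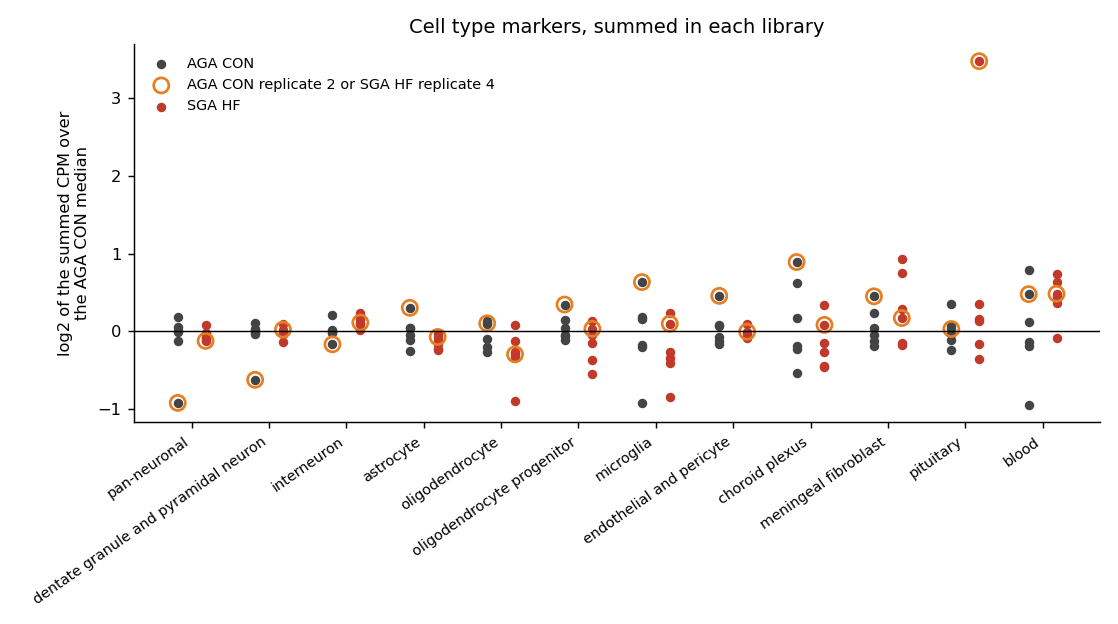
Summed CPM of 12 cell type marker lists in each SGA HF and AGA CON library, as log2 of the sum over the median of the 6 AGA CON libraries; each point is a library, and the ringed points are AGA CON replicate 2 and SGA HF replicate 4. The ringed AGA CON library lies lowest for both lists of principal neurons and highest for astrocytes and microglia, and the ringed SGA HF library stands alone at 384.7 CPM of pituitary markers.

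Very few genes passed the threshold of the main test between SGA HF and AGA CON piglets. At an FDR p (the p adjusted over all genes of the comparison) under 0.4, the threshold the study used for its heat map, 2 of the 16326 genes tested were higher in SGA HF piglets (0.0123%) and 0 were lower, by edgeR's quasi-likelihood test. At an FDR p under 0.1 the count stayed at 2, and at 0.05 it was 1 (0.00613%). Unadjusted p-values under 0.05 were found for 868 genes, 5.32% of those tested, where 816.3 would be found if no gene differed. Of these, 477 were higher (2.92%) and 391 were lower (2.39%) in SGA HF piglets. DESeq2, which gave an adjusted p to 1133 genes only after its own filter, called 50 genes higher and 13 lower. Leaving out SGA HF replicate 3 raised the edgeR count to 11 higher and 2 lower, leaving out AGA CON replicate 2 left 1 higher and 0 lower, and leaving out SGA HF replicate 4 gave 3 higher and 1 lower.

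An absent call does not show that levels are alike, so the width of each gene's 95% interval was examined as well. The interval of the fold change lay within 1.5-fold in either direction for 10915 genes (66.9%) and within a narrow bound of 0.32 on the log2 scale for 6689 genes (41%). Among the 9071 genes with a mean level of 10 CPM or more, 96.9% had an interval within 1.5-fold and 72.4% within the narrow bound, with a median standard error of 0.09 on the log2 scale. Among the 7255 genes under 10 CPM these shares were 29.2% and 1.65%, and the median standard error was 0.28, so differences of moderate size were not detectable in low genes at this depth. An interval wholly beyond the narrow bound was found for 45 genes (0.276%), 29 of them higher and 16 lower. Without AGA CON replicate 2 and SGA HF replicate 4, 33.5% of genes had an interval within the narrow bound and the counts at an FDR p under 0.4 were 2 higher and 1 lower.

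**Figure D2:**
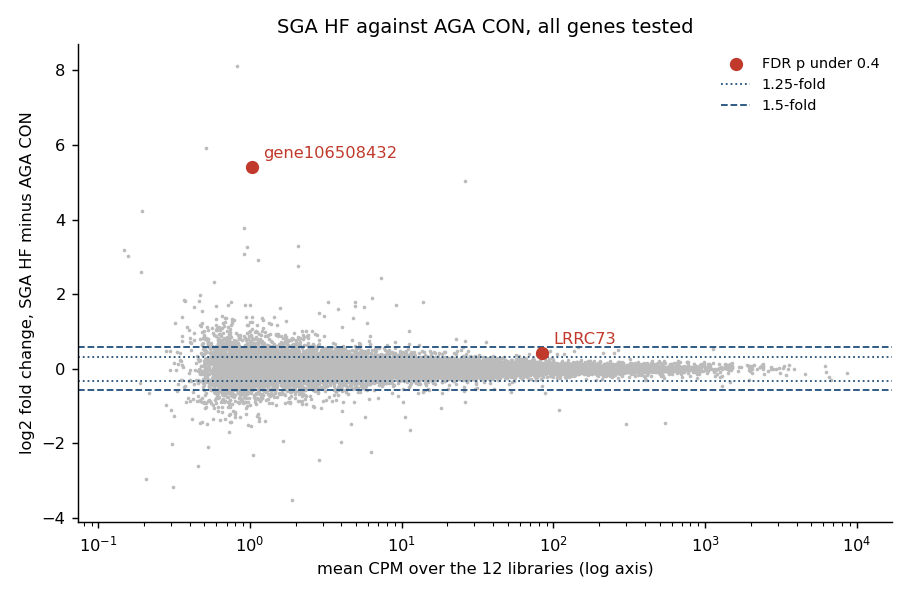
Log2 fold change of SGA HF minus AGA CON for each of the 16326 genes tested, against its mean CPM over the 12 libraries on a log axis; the lines mark the narrow bound and 1.5-fold in both directions and the larger red points are genes with an FDR p under 0.4. The scatter narrows as the level rises, and the red points are LRRC73 and gene106508432.

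The nearness of each library to the reference was also measured directly, as the root mean square difference of its log2 CPM to AGA CON libraries that were not its littermates, after removal of sex and cohort means. SGA HF libraries lay 0.529 ± 0.0194 (SD, n = 6) from the reference, from 0.506 to 0.556. The AGA CON libraries lay 0.543 ± 0.0367 from each other (n = 6), from 0.508 to 0.602, and their highest value was that of replicate 2. SGA HF libraries were therefore inside the range of the AGA CON libraries except for the lowest, replicate 6, which fell just below it. Such a distance also holds each library's own spread and counting noise, so it does not measure the difference of the group means alone. Median total counts were 8060160 in SGA HF, 7494464 in AGA CON, 7429176 in SGA CON and 6834062 in AGA HF libraries, and the part of depth was not tested. SGA CON libraries lay 0.550 ± 0.0475 from AGA CON (n = 6) and AGA HF libraries 0.562 ± 0.0242 (n = 6). The difference between SGA HF and SGA CON libraries was -0.02, about as large as the SD of SGA HF and smaller than that of SGA CON (two-sided exact permutation test over 924 splits, p = 0.424). With splits kept within sex and cohort, a choice made after seeing the data, the p was 0.458 over 144 splits. The sign turned within the first cohort, where the difference was 0.03, and was -0.05 within the second. Without SGA CON replicate 6, the library farthest from the reference at 0.640, the difference was -0.0028. Without AGA CON replicate 2 it was -0.0139. Without both SGA HF replicate 4 and AGA CON replicate 2 it was -0.0102 (two-sided exact permutation test over 462 splits, p = 0.725). The share of the variance over the 12 libraries that lay between SGA HF and AGA CON was 11.2%, where the median split of the same libraries gave 9.34% (one-sided exact permutation test over 924 splits, p = 0.128). Within sex and cohort the p was 0.319, and without removing sex and cohort the share was 8.16% with a p of 0.740 by the same exact permutation test.

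**Figure D3:**
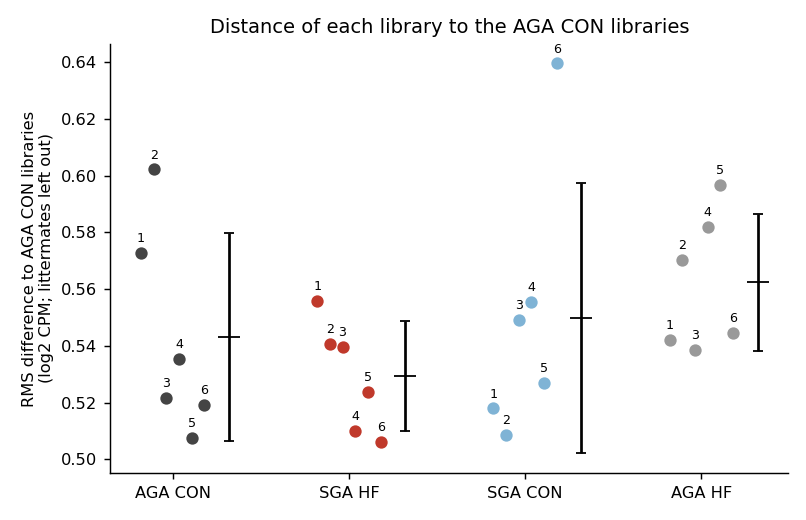
Root mean square difference in log2 CPM of each library to AGA CON libraries other than its littermate, by group; points are libraries with their replicate number, and the bar beside them is the mean ± SD (n = 6). The SGA HF libraries sit between 0.506 and 0.556, and the highest points are AGA CON replicate 2 at 0.602 and SGA CON replicate 6 at 0.640.

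LRRC73, which encodes a protein with leucine-rich repeats, gave the smallest p of all genes. The gene (ID 100736626) lies on chromosome 7 from 44083021 to 44086361 in Sscrofa10.2. In SGA HF replicates 1 to 6 its level was 83.9, 94.0, 88.0, 100.5, 105 and 101.6 CPM. In AGA CON replicates 1 to 6 it was 83.5, 41.4, 75.0, 72.6, 77.2 and 87.6 CPM. The SGA HF libraries were high and close together, AGA CON replicate 2 was far below all others, and the groups overlapped through AGA CON replicate 6. The mean was 95.5 ± 8.34 CPM in SGA HF, compared with 72.9 ± 16.4 CPM in AGA CON (SD, n = 6 each). The log2 fold change was 0.42 (SE 0.07, 95% interval 0.28 to 0.56) with an adjusted p of 0.0467 by edgeR's quasi-likelihood test. Without AGA CON replicate 2 it was 0.30 with an adjusted p of 0.999 by the same test, and without AGA CON replicate 4 it was 0.38 with an adjusted p of 0.727. Without both SGA HF replicate 4 and AGA CON replicate 2 it was 0.29 with an adjusted p of 0.805. The call was also lost without surrogate variables (covariates estimated from the data for unlabelled variation), with 3 of them in place of 5, in fits of the 12 libraries alone and in each cohort alone, and it held in 16 of the 26 alternatives with an adjusted p. The log2 fold change was positive in all 27 alternatives, from 0.29 to 0.44, and was 0.42 in the first cohort and 0.37 in the second. In SGA CON libraries LRRC73 averaged 106 CPM and in AGA HF libraries 75.7 CPM. SGA HF differed from SGA CON by 0.01 (95% interval -0.13 to 0.16), an interval within the narrow bound.

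The second called gene, gene106508432, has no symbol in the name table and lies on an unplaced sequence from 33569 to 34533. It was measured near the floor. SGA HF replicates 1 to 6 held 1, 5, 2, 23, 42 and 15 reads, and AGA CON replicates 1 to 6 held 0, 13, 0, 0, 1 and 0. Among these 12 libraries, reads above 10 came from the 3 SGA HF libraries of the second cohort and from AGA CON replicate 2. In the other groups, AGA HF replicates 1 to 6 held 0, 14, 1, 23, 26 and 0 reads, and SGA CON replicates 1 to 6 held 1, 19, 18, 0, 0 and 0. The fitted log2 fold change of 5.40 (adjusted p = 0.0943, edgeR's quasi-likelihood test) depends on the prior count and on the surrogate variables, and was 2.39 with sex and cohort in their place. It was -0.45 in the first cohort and 5.74 in the second, and the call was lost without AGA CON replicate 6 (adjusted p = 0.607) and without SGA HF replicate 5 (adjusted p = 0.520).

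Genes with the next smallest p-values did not pass the threshold, and are described with their levels. Those with a positive log2 fold change in SGA HF come first. CACNA1E, a voltage-gated calcium channel subunit, was at 204 ± 21.9 CPM in SGA HF, compared with 169 ± 26.9 CPM in AGA CON. CHRM1, the M1 muscarinic acetylcholine receptor, ran from 599 to 831 CPM (median 707 CPM) in SGA HF and from 375 to 774 CPM (median 679 CPM) in AGA CON. SYT5, a synaptotagmin of vesicle release, ran from 526 to 638 CPM against 319 to 615 CPM. For all 3 of these the lowest AGA CON value was that of replicate 2, and without that library the log2 fold changes went from 0.21 to 0.12 for CACNA1E, from 0.18 to 0.08 for CHRM1 and from 0.20 to 0.13 for SYT5.

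PLXND1, a plexin receptor for semaphorin guidance cues, ran from 55.9 to 81.9 CPM (median 75.4 CPM) in SGA HF and from 51.9 to 64.4 CPM (median 56.9 CPM) in AGA CON, with 1 SGA HF library among the AGA CON values. Its log2 fold change was 0.28 (SE 0.07, adjusted p = 0.718 by edgeR's quasi-likelihood test), and 0.25 without AGA CON replicate 2. AEBP1, an extracellular matrix protein, was at 313 ± 51.8 CPM in SGA HF, compared with 222 ± 50.6 CPM in AGA CON (log2 fold change 0.50, and 0.41 without AGA CON replicate 2). PDXP, a phosphatase that acts on the vitamin B6 cofactor, had a log2 fold change of 0.49 and KIAA1324 of 0.54, and these were 0.32 and 0.46 without that library. SAA3, an acute phase protein gene, had between 0 and 3.76 CPM in the 12 libraries. Its fitted log2 fold change of 3.07 went against its means, 0.710 CPM in SGA HF, compared with 1.10 CPM in AGA CON, and it turned negative in fits without surrogate variables. GH1 had a fitted log2 fold change of 5.03 that was 1.60 without SGA HF replicate 4, the library with pituitary transcripts.

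BCL11B encodes a zinc finger transcription factor of granule and pyramidal neurons, and its libraries did not overlap between the groups. The 6 SGA HF libraries had 66.3, 66.0, 60.8, 58.1, 62.5 and 70.7 CPM, and the 6 AGA CON libraries 51.2, 38.0, 53.8, 50.8, 52.3 and 44.4 CPM. Every SGA HF library was thus above every AGA CON library. The log2 fold change was 0.37 (SE 0.10, 95% interval 0.17 to 0.57), was 0.34 without AGA CON replicate 2 and was 0.43 and 0.37 in the 2 cohorts. The FDR p was 0.718 by edgeR's quasi-likelihood test. SGA CON libraries averaged 58.6 CPM, with a log2 fold change of 0.15 between SGA HF and SGA CON.

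Such a separation was found for 36 of the 16326 genes (0.221%), 15 higher and 21 lower in SGA HF, and 25 of the 36 had a symbol. With 6 libraries in each group some genes separate fully by chance, and how many was not computed, so the count is a description only. None of the 36 passed the FDR threshold. The others described here were chosen after their values were seen, for their level. Higher in all SGA HF libraries were THRB, a thyroid hormone receptor (68.0 to 74.3 CPM against 53.3 to 64.0 CPM, log2 fold change 0.20), and CELSR3, a cadherin of axon guidance (27.3 to 34.4 CPM against 23.0 to 27.2 CPM, log2 fold change 0.27). LMO7 separated by a narrow margin (74.3 to 90.7 CPM against 46.2 to 73.4 CPM, log2 fold change 0.29), and its lowest value was again that of AGA CON replicate 2. NPAS2, a transcription factor of the circadian clock, ran from 59.1 to 65.4 CPM against 45.7 to 58.6 CPM, with a log2 fold change of 0.17.

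Lower in all SGA HF libraries was FTH1, the heavy chain of the iron store ferritin and the most abundant of the 36 genes. FTH1 had 4113, 4195, 4353, 4234, 4497 and 4235 CPM in SGA HF replicates 1 to 6, and 4916, 4822, 4626, 4585, 4507 and 5181 CPM in AGA CON replicates 1 to 6. The highest SGA HF library lay just under the lowest AGA CON library, both of them replicate 5, and the log2 fold change was -0.14 (SE 0.05, 95% interval -0.24 to -0.05, adjusted p = 0.859 by edgeR's quasi-likelihood test). The interval lay within the narrow bound. FTL, the light chain of ferritin, was at 1192 ± 156 CPM against 1404 ± 119 CPM (log2 fold change -0.21), and PRDX1, a peroxiredoxin, ran from 79.4 to 122 CPM against 98.6 to 150.7 CPM (log2 fold change -0.25). FTH1, FTL and PRDX1 were the 3 members of the antioxidant and iron handling list with an unadjusted p under 0.05, out of 24 tested, against 2.39% of all genes in that direction, and the list as a whole was centred at -0.01. PPIB, a prolyl isomerase of the endoplasmic reticulum, ran from 40.2 to 47.9 CPM against 48.9 to 57.5 CPM (log2 fold change -0.20), and SRSF9, a splicing factor, from 38.0 to 41.0 CPM against 42.1 to 47.1 CPM (log2 fold change -0.12). FCGBP, an Fc binding protein, ran from 4.22 to 5.27 CPM against 5.46 to 7.95 CPM, with a log2 fold change of -0.49.

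Other genes of small p and negative log2 fold change overlapped between the groups. FXYD7, a brain regulator of the sodium pump, ran from 29.1 to 69.8 CPM (median 32.8 CPM) in SGA HF and from 48.9 to 97.9 CPM (median 61.4 CPM) in AGA CON, with a log2 fold change of -0.64 (SE 0.15, adjusted p = 0.718 by edgeR's quasi-likelihood test). Without SGA HF replicate 4 it passed the threshold, at -0.82 with an adjusted p of 0.298 by that test, and without AGA CON replicate 2 as well it was -0.87 with an adjusted p of 0.337. PEA15, a phosphoprotein of astrocytes, was at 3192 ± 333 CPM against 3672 ± 287 CPM (log2 fold change -0.17), and -0.10 without AGA CON replicate 2, which held the highest level at 4231 CPM. WNT7A, a Wnt ligand, was at 22.6 ± 2.53 CPM against 30.9 ± 5.47 CPM (log2 fold change -0.36), and SH3GL3, an endophilin of vesicle endocytosis, at 82.8 ± 9.39 CPM against 98.1 ± 7.82 CPM (log2 fold change -0.23). NUDT17 (-0.41), TMTC2 (-0.57), ZFP14 (-0.92), UBR4 (-1.04) and OAZ3 (-1.64) made up the 10 of smallest p, with FDR p-values between 0.718 and 0.859 by the same test. UBR4 was near the floor, at 2.20 CPM in SGA HF, compared with 3.07 CPM in AGA CON, and was not lower in the first cohort (0.03).

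**Figure D4:**
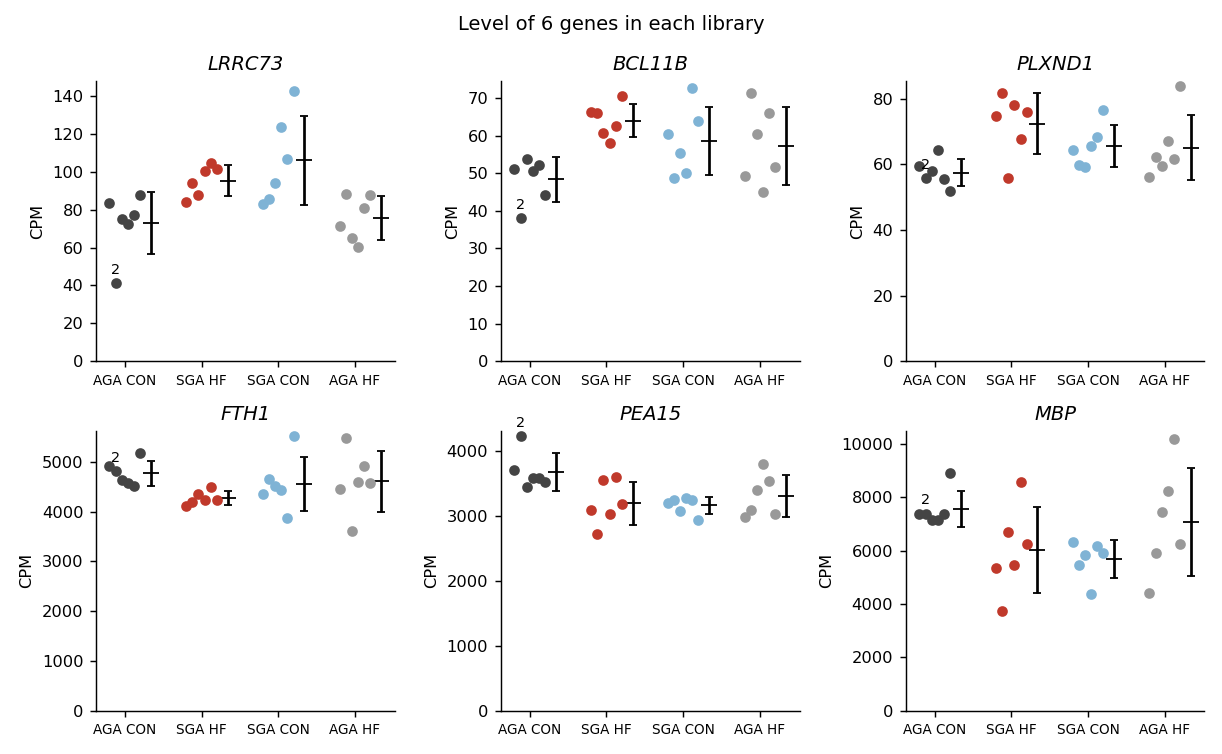
CPM of 6 genes in each library of the 4 groups; points are libraries in order of replicate number, the bar beside them is the mean ± SD (n = 6), and a 2 marks AGA CON replicate 2. For BCL11B and FTH1 no SGA HF library overlaps an AGA CON library, and for LRRC73 the marked library is the lowest of all at 41.4 CPM.

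Oligodendrocyte genes stood on the lower side in SGA HF piglets, though no member passed the FDR threshold. All 10 oligodendrocyte markers had a negative log2 fold change, with a median of -0.23, and 4 of the 10 had an unadjusted p under 0.05, against 2.39% of all genes in that direction. The list of myelin proteins and lipid enzymes, which shares several of these genes, had 18 of 19 members negative, a median of -0.21 and 5 of 19 with an unadjusted p under 0.05. The median over all genes tested was 6.194e-05. Members share the same cells and are no replicates of each other.

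MBP, the myelin basic protein, had 5344, 3753, 6716, 5451, 8579 and 6246 CPM in SGA HF replicates 1 to 6, and 7383, 7398, 7148, 7150, 7370 and 8932 CPM in AGA CON replicates 1 to 6. In AGA CON 5 of the 6 libraries lay between 7148 and 7398 CPM, whereas SGA HF libraries were spread from well below this level to above it. The mean was 6015 ± 1613 CPM against 7564 ± 680 CPM, and the log2 fold change was -0.32 (SE 0.13, 95% interval -0.58 to -0.06, adjusted p = 0.889 by edgeR's quasi-likelihood test). The log2 fold change of MBP was -0.29 without AGA CON replicate 2 and -0.14 without both AGA CON replicate 2 and SGA HF replicate 4. Within the first and the second cohort it was -0.49 and -0.22. CNP, an enzyme of the myelin sheath, was at 1695 ± 461 CPM against 2202 ± 446 CPM (log2 fold change -0.31, and -0.26 without both). UGT8, which makes galactosylceramide, was at 491 ± 86.6 CPM against 583 ± 87.1 CPM (log2 fold change -0.24, and -0.07 without both). MOBP had a log2 fold change of -0.22, which was -0.12 without AGA CON replicate 2 and 0.04 without both libraries that stood apart. MAG had a log2 fold change of -0.21 and CLDN11 of -0.25, which was -0.17 without SGA HF replicate 2. MOG was low, at 8.01 ± 5.89 CPM against 12.3 ± 6.71 CPM, with an interval of -1.45 to 0.35. GAL3ST1, which adds sulfate to galactosylceramide, was the exception at 0.04 with an interval of -0.18 to 0.26.

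The sums of the 10 oligodendrocyte markers overlapped, from 12560 to 24660 CPM (median 19130 CPM) in SGA HF and from 19270 to 25550 CPM (median 23240 CPM) in AGA CON. The median of the oligodendrocyte markers was -0.21 without AGA CON replicate 2, -0.18 without SGA HF replicate 4 and -0.11 without both, and that of the myelin list was -0.07 without both. Within the first and the second cohort the median was -0.40 and -0.14 for the markers, and -0.27 and -0.12 for the myelin list. In SGA CON against AGA CON, which shares the AGA CON libraries, the myelin list had a median of -0.24 and the markers of -0.22. Between SGA HF and SGA CON the medians were 0.03 and -0.04. Markers of oligodendrocyte progenitors had a median of 0.05, or 0.12 without AGA CON replicate 2, with -0.19 in the first cohort and 0.17 in the second, and BCAS1, of newly formed oligodendrocytes, was at 777 ± 160 CPM against 983 ± 202 CPM (log2 fold change -0.26).

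Genes of the protein and energy machinery held no called member. Only 0.0123% of all genes tested were called, so an absent call says little about a list. Of the 73 cytosolic ribosomal protein genes tested, 67 had an interval within the narrow bound, where the share was 41% over all genes and 72.4% over genes of 10 CPM or more. Of the 73, 19 had a positive log2 fold change. The median was -0.03, or -0.00034 without AGA CON replicate 2, and it was -0.20 in the first cohort and -0.02 in the second. The same genes had a median of -0.13 in SGA CON against AGA CON and of 0.10 between SGA HF and SGA CON. Both comparisons use the SGA CON libraries, with opposite sign, so these values are not independent of each other. Ribosomal proteins have many near-identical copies in the genome, which makes single members uncertain. RPL10 had the smallest p of the list, at 40.4 ± 3.50 CPM against 48.4 ± 6.03 CPM (log2 fold change -0.25). Of 62 genes of the respiratory chain and ATP synthase, 55 had an interval within the narrow bound, with a median of -0.03, and SDHC, a subunit of succinate dehydrogenase, was at 80.3 ± 4.00 CPM against 88.2 ± 6.66 CPM (log2 fold change -0.12). Of 67 mitochondrial ribosomal protein genes, 47 had an interval within the narrow bound. The proton pump and lysosomal list had 22 of 28 within that bound, and heat shock chaperones 14 of 19.

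Genes of fat handling, the nutrient that differs between the formulas, showed no called member, with 0.0123% of all genes tested called. Of 23 cholesterol synthesis genes, 15 had an interval within the narrow bound and 22 within 1.5-fold, and the median was -0.03. For this and the following lists, the share within the narrow bound was 41% over all genes and 72.4% over genes of 10 CPM or more. TM7SF2, a sterol reductase of the pathway, was at 293 ± 18.8 CPM in SGA HF, compared with 252 ± 22.6 CPM in AGA CON (log2 fold change 0.18). Of 16 genes of fatty acid synthesis, desaturation and elongation, 11 had an interval within the narrow bound, 0 had an unadjusted p under 0.05, and the median was -0.03. FADS1, the delta-5 desaturase on the way to arachidonic acid, was at 54.5 ± 2.29 CPM against 52.4 ± 10.7 CPM (log2 fold change 0.16, interval -0.03 to 0.36). Lipid uptake and transport genes had a median of -0.02, with 12 of 19 inside the narrow bound, and their member of smallest p was APOD, an apolipoprotein of glia, at 364 ± 100.1 CPM against 446 ± 104 CPM (log2 fold change -0.32). Fatty acid oxidation genes and PPAR targets had a median of -0.07 with 12 of 24 inside the narrow bound, and UCP2, an uncoupling protein, had the smallest p (log2 fold change 0.40, 14.8 to 41.8 CPM against 14.2 to 32.6 CPM). The log2 fold change of UCP2 was 0.02 in the first cohort and 0.57 in the second.

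Postsynaptic and calmodulin genes mostly had positive log2 fold changes. Without AGA CON replicate 2, the library with few neuronal transcripts, this was no longer so for the postsynaptic list. For the calmodulin list it was weaker. Of 21 postsynaptic scaffold genes, 18 had a positive log2 fold change and 4 an unadjusted p under 0.05, against 2.92% of all genes in that direction. Of 16 calmodulin and CaM kinase genes, 14 were positive and 3 had such a p. CAMK2A, the kinase subunit of synaptic plasticity and a member of both lists, was at 3594 ± 204 CPM against 3508 ± 210 CPM (log2 fold change 0.11, and 0.06 without AGA CON replicate 2). CAMK2B was at 1095 ± 67.6 CPM against 1050 ± 214 CPM (0.09, and 0.0013 without that library) and PPP3CB, a calcineurin subunit, at 112 ± 10.1 CPM against 98.3 ± 11.3 CPM (0.15 and 0.11). Without AGA CON replicate 2, the median of the postsynaptic scaffold list went from 0.05 to -0.0011, with 11 of 21 members negative and 0 with a small p. That of the calmodulin list went from 0.07 to 0.02, with 6 of 16 members negative and 1 higher at a small p. Without SGA HF replicate 4 as well, the medians were -0.01 and -0.0069.

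All 21 synaptic vesicle genes had an interval within 1.5-fold and 17 within the narrow bound. Their median was -0.0017, or -0.04 without AGA CON replicate 2, with 10 of 21 members positive, and the 3 with an unadjusted p under 0.05 were SV2A, RAB3A and SYN3, all positive. SV2A, a vesicle glycoprotein, ran from 444 to 486 CPM in SGA HF and from 256 to 467 CPM in AGA CON, with a log2 fold change of 0.16 that was 0.03 without AGA CON replicate 2. RAB3A went from 0.10 to 0.02 and SYN3 from 0.18 to 0.10 in the same way. AMPA, NMDA and GABA-A receptor subunits had a median of 0.09, or 0.02 without that library, and it was 0.32 in the first cohort and -0.10 in the second. GABRA4 was at 42.1 ± 7.70 CPM against 33.4 ± 4.97 CPM (log2 fold change 0.26, and 0.23 without it). FXYD6, a further regulator of the sodium pump, was at 719 ± 57.8 CPM against 606 ± 80.3 CPM (0.20, and 0.17 without it). Pan-neuronal markers had a median of 0.01 and dentate granule and pyramidal neuron markers of 0.08, or -0.07 and 0.06 without it. The pan-neuronal median was 0.31 in the first cohort and -0.12 in the second. The part of cell make-up in these differences was not tested.

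**Figure D5:**
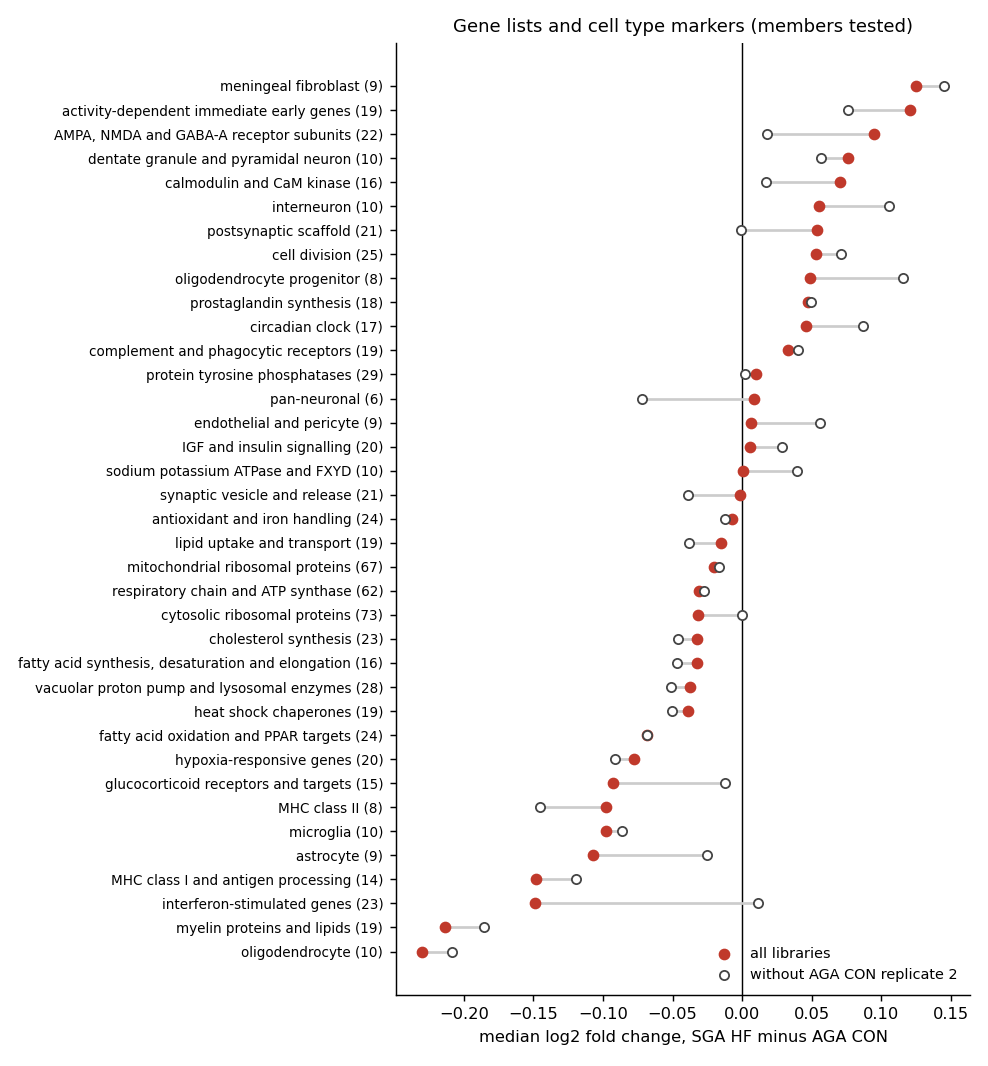
Median log2 fold change of SGA HF minus AGA CON over the tested members of each gene list or marker list with at least 6 members tested (number in parentheses), with all libraries (filled) and without AGA CON replicate 2 (open). Oligodendrocyte markers and myelin genes lie lowest at -0.23 and -0.21 and move little, whereas postsynaptic scaffold and interferon-stimulated genes move to near 0.

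Immune genes were measured with less precision. MHC class I and antigen processing genes had a median of -0.15, with 4 of 14 inside the narrow bound. This median was -0.28 without SGA HF replicate 4, -0.44 in the first cohort and -0.04 in the second. SLA-3, a class I heavy chain, ran from 41.9 to 105.3 CPM in SGA HF and from 28.6 to 279 CPM in AGA CON (log2 fold change -0.47), and its log2 fold change was -0.76 without SGA HF replicate 4, -1.17 in the first cohort and -0.03 in the second. MHC class II genes had a median of -0.10, and this was -1.02 in the first cohort and -0.05 in the second. SLA-DRB1 was at 3.43 ± 2.45 CPM against 6.86 ± 3.10 CPM (log2 fold change -0.63, interval -1.30 to 0.04). Genes of the MHC are polymorphic in pigs, and reads of near-identical copies make these members uncertain. Of 23 interferon-stimulated genes, 20 had a negative log2 fold change (3 were positive) and the median was -0.15, but 0.01 without AGA CON replicate 2. Complement genes and phagocytic receptors had a median of 0.03, and C1R, a complement protease, was at 26.4 ± 6.24 CPM against 23.7 ± 10.9 CPM (log2 fold change 0.32), and -0.00079 in the first cohort. Microglia markers had a median of -0.10 with 0 members at a small p, and -0.49 in the first cohort and -0.04 in the second. ITGAM was at 8.48 ± 2.30 CPM against 11.1 ± 4.74 CPM, with a log2 fold change of -0.22 that was -0.0648 without AGA CON replicate 1. PTPRC, the leukocyte phosphatase CD45, was at 2.07 ± 0.506 CPM against 3.30 ± 1.73 CPM (-0.52).

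Lists of other functions held no called member, with 0.0123% of all genes tested called. Several lists, here and above, follow functions the study itself named from these libraries, so their direction is not independent evidence. These are the sodium pump, protein tyrosine phosphatase, proton pump, ribosomal protein, cell division, calmodulin, receptor subunit, synaptic and clock lists, and the MHC and other immune lists. Immediate early genes of neuronal activity had a median of 0.12, or 0.08 without AGA CON replicate 2, and their member of smallest p was JUN, which had the opposite sign, at 45.8 ± 3.66 CPM against 53.4 ± 5.05 CPM (log2 fold change -0.23). Clock genes had a median of 0.05, with BHLHE40 at 32.9 ± 2.92 CPM against 24.9 ± 5.48 CPM (0.30). Of 10 sodium pump and FXYD genes, 3 higher and 1 lower had an unadjusted p under 0.05, against 5.32% of all genes, and the median was 0.00082. Without AGA CON replicate 2, 1 higher and 1 lower had such a p, and the median was 0.04. Glucocorticoid targets had a median of -0.09 (or -0.01 without AGA CON replicate 2), IGF and insulin signalling genes of 0.01, hypoxia genes of -0.08, cell division genes of 0.05, protein tyrosine phosphatases of 0.01 and prostaglandin synthesis genes of 0.05. Astrocyte markers had a median of -0.11, or -0.03 without AGA CON replicate 2, and S100B, a calcium-binding protein of astrocytes, was at 1071 ± 110 CPM against 1253 ± 166 CPM (-0.19). Interneuron markers had a median of 0.06, endothelial and pericyte markers of 0.01, and choroid plexus markers, with 5 members tested, of -0.29 with 0 at a small p. Meningeal fibroblast markers had a median of 0.12, with 8 of 9 members positive and 2 at a small p, against 2.92% of all genes in that direction. The median was 0.02 without SGA HF replicate 2 and 0.24 without SGA HF replicate 4, and TNMD among them was near the floor at 1.85 ± 1.94 CPM against 0.562 ± 0.618 CPM. The 3 blood markers tested had a median of 0.42, with 0 at a small p. Of the 3 pituitary markers tested, POMC was at 30.5 ± 10.6 CPM against 25.8 ± 2.65 CPM and LHB at 8.98 ± 3.20 CPM against 7.86 ± 2.23 CPM, and without SGA HF replicate 4 their log2 fold changes went from 0.30 to 0.08 and from 0.28 to 0.04.

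The 4 pairwise comparisons of the study, run in the same fit, place these counts beside each other. They are not the study's own counts. The study tested more genes, adjusted over its 7 contrasts together and reported genes in each of the 4 comparisons. SGA CON against AGA CON gave 15 genes at an FDR p under 0.4 (0.0919%), SGA HF against AGA HF 235 (1.44%), AGA HF against AGA CON 0 (0%, by edgeR) and SGA HF against SGA CON 8 (0.049%). Unadjusted p-values under 0.05 were found for 6.59%, 8.02%, 6.09% (995 genes) and 5.16% of genes in the same order, against 5.32% for SGA HF with AGA CON. The comparisons share libraries, and whether their counts differ was not tested. Without AGA CON replicate 2 and SGA HF replicate 4, a choice made after seeing the data, the counts were 0, 241, 1727 and 9, so the first and the third of these counts rest on which libraries are kept.

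The genes called in SGA CON against AGA CON were looked up in SGA HF piglets. They were chosen for their difference from the same AGA CON libraries, so values nearer to 0 in SGA HF are to be read as a description only. KIAA1671 had a log2 fold change of 0.53 in SGA CON and 0.26 in SGA HF against AGA CON, and ran from 59.4 to 89.0 CPM in SGA HF and from 45.5 to 62.3 CPM in AGA CON. GAMT, the methyltransferase that makes creatine, had -0.36 in SGA CON and -0.08 in SGA HF, with levels of 32.6 to 46.1 CPM in SGA HF, 36.7 to 49.5 CPM in AGA CON and 32.4 to 38.0 CPM in SGA CON. Its interval in SGA HF against AGA CON, -0.23 to 0.07, lay within the narrow bound. RPL12 had -0.30 and -0.10, also with an interval within the narrow bound (-0.22 to 0.02), and RPL10 -0.42 and -0.25. HNRNPH1, an RNA-binding protein of splicing, had 0.32 and 0.12 (interval -0.02 to 0.27), and the second value was 0.0565 without SGA HF replicate 3. PDXP had 0.57 and 0.49, and LRRC73 0.40 and 0.42.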

How the data were processed

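Hippocampal RNA of 24 piglets was sequenced as single-end, strand-specific reads. The authors trimmed reads with Trimmomatic 0.33, aligned them to Sscrofa10.2 with STAR 2.5.2a and counted exonic reads per gene with featureCounts (Subread 1.5.0). The deposited values are whole-number counts per gene for each library, without normalization. The 38882 listed genes were named from a Sscrofa11.1 RefSeq table (23036 matched, 15993 with a symbol), and coordinates are those of the deposited files. An unnamed entry of mitochondrial RNAs, 0.613% to 1.61% of the counts in the 12 libraries, was left out.

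Groups, sex and cohort came from the labels. The 16326 genes that reached 1 CPM in 3 or more of the 24 libraries were fitted by edgeR 4.0.16 (R 4.3.3, glmQLFit and glmQLFTest, TMM) on all 24 libraries with the 4 groups, sex and 5 surrogate variables (sva 3.50.0). The FDR or adjusted p is the Benjamini-Hochberg p over this comparison, and standard errors are the log2 fold change over the root of F. CPM uses TMM-scaled library sizes. Distances used log2 CPM with a prior count of 2. The test was run on simulated counts first. Named genes are the called genes, the 10 genes of smallest p in each direction with a symbol, a mean of 1 CPM or more in the higher group and the same sign under each left-out library, for each list its member of smallest p, pituitary markers, PEA15, and others said to be chosen later. Myelin, iron, synaptic and sodium pump members with an unadjusted p under 0.05 and genes called in SGA CON were also chosen after their values were seen. The members of the comparison, the gene lists and the tests were chosen with earlier results of these data known. Alternatives were DESeq2 1.42.0, limma 3.58.1 voom, other scalings, filters and covariates, the 12 libraries alone, each cohort and each library left out. Some members of the lists are not reported here by name. Within a group, each library is a different piglet of a different litter.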

Additional observations from a re-analysis of the deposited data

Results flagged for a closer look

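In groups of 6 libraries, a value was singled out where its gap to the nearest library exceeded Dixon's 95% limit. This held in 21 of 141 groups examined over 69 genes and the distances. The limit is set for about 1 in 20 groups of independent, normally distributed values. The genes here were chosen and share the same libraries, so the count is a description only. AGA CON replicate 2 was singled out for LRRC73 (41.4 CPM), gene106508432 (1.96 CPM), FXYD7 (97.9 CPM), CHRM1 (374.8 CPM), PEA15 (4231 CPM), SV2A (256 CPM), PTPRC (6.77 CPM), C1R (44.8 CPM), TNMD (1.80 CPM), SLA-3 (279 CPM), LMO7 (46.2 CPM), CAMK2B (625 CPM) and RAB3A (1101 CPM). The neuronal genes among these, CHRM1, SV2A, CAMK2B and RAB3A, were the lowest there, in the library with the lowest neuronal marker sums, and PEA15, PTPRC, C1R and SLA-3 were the highest.

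SGA HF replicate 4 was singled out for GH1 (305 CPM) and LHB (15.1 CPM). In the same library PRL had 62 counts and CGA 60 counts, both outside the genes tested, against at most 9 and 8 counts elsewhere. The other values were SAA3 in SGA HF replicate 2 (2.77 CPM), GH1 in AGA CON replicate 1 (5.04 CPM), OAZ3 in SGA HF replicate 1 (19.5 CPM), UCP2 and MBP in AGA CON replicate 6 (32.6 and 8932 CPM), and the distance to AGA CON of SGA CON replicate 6 (0.640).

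The log2 fold change of gene100525818, on chromosome 6 from 70539988 to 70578415, differed between the cohorts by 1.17 (second minus first, adjusted p = 0.0395 by edgeR's quasi-likelihood test of the interaction over 15700 genes, the only gene under 0.05 by this test). Its SGA HF libraries held 231, 272 and 253 counts in the first cohort and 503, 457 and 489 in the second, and its AGA CON libraries 374, 330 and 396, then 273, 309 and 265. An unadjusted p under 0.05 for this interaction was found for 849 genes.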

How the results depend on the processing

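The count of genes called higher in SGA HF than in AGA CON was 2, and it was 0 without surrogate variables (with sex alone or with sex and cohort), with 3 surrogate variables, in the 12 libraries alone and in each cohort alone, 4 without a filter, 7 with the FDR over 8 contrasts together, 50 by DESeq2 and 1 at an FDR p under 0.05. Leaving out 1 library gave 1 to 11. It was 1 without AGA CON replicate 2, 4 or 6 or SGA HF replicate 5, 4 without AGA CON replicate 3 or SGA HF replicate 2, and 11 without SGA HF replicate 3. The count called lower was 0, and it was 13 by DESeq2, 3 with the FDR over 8 contrasts, 1 in the first cohort, 1 without both SGA HF replicate 4 and AGA CON replicate 2, and 0 to 2 with 1 library left out (1 without AGA CON replicate 3 or SGA HF replicate 4, 2 without SGA HF replicate 3). Same-numbered libraries come from different litters, and their deviations correlated at -0.0502 to 0.284 (mean 0.113, 4 of 6 best with their own number), so the numbers were not taken to pair them. With a replicate block in the 12 libraries, 1 gene was called higher and 1 lower, the latter FXYD7 (-0.70, edgeR adjusted p = 0.222). The causes were not tested. The count of intervals within 1.5-fold stayed within 1.5 times of 10915 except in the first cohort (7251), and that within the narrow bound of 0.32 in log2 except in the first cohort (1370) and the second (2080), where fewer libraries entered. The distance between SGA HF and SGA CON turned to 0.0298 in the first cohort. For the pairwise comparisons, in alternatives chosen after seeing the data, leaving out both libraries gave 0 genes for SGA CON minus AGA CON and 1727 for AGA HF minus AGA CON, and the FDR over 8 contrasts gave 25 for SGA HF minus AGA HF, 8 for AGA HF minus AGA CON and 13 for SGA HF minus SGA CON. Of 1815 values of 69 named genes under the alternatives, 1794 kept their sign. In the first cohort alone the sign turned for gene106508432 (-0.45), UBR4 (0.0309), SAA3 (-0.79), GH1 (-0.51), CAMK2A (-0.0372), C1R (-0.00079), POMC (-0.0509), LHB (-0.12) and GAL3ST1 (-0.0591). Without both libraries it turned for SV2A (-0.0205), LHB (-0.0761), MOBP (0.0424), CAMK2B (-0.022) and RAB3A (-0.0024). SAA3 was -0.62 and -0.51 without surrogate variables, -0.55 in the 12 libraries and -0.44 with the replicate block, where GH1 was -0.35. GAL3ST1 ranged from -0.0503 to 0.0977 with 1 library left out. Low counts limited genes under 10 CPM.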
